A study of Mus musculus with 82 samples.

Results

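The promoter peaks of H3K27ac, the acetyl mark on lysine 27 of histone H3, were taken as the peaks that the study's annotation places near a transcription start (TSS-proximal). They numbered 13392 of the 39557 distinct H3K27ac peaks, beside 13680 peaks in gene bodies, 12221 between genes and 264 near transcript ends. The annotation named 13815 genes for them. A single gene was named for 11562 of the peaks, 2 genes for 1784 and 3 or more for 46, and of the genes 1254 had 2 promoter peaks and 100 had 3 or more. The H3K27ac ChIP-seq compared bone marrow hematopoietic stem cells, sorted as LSK CD34- Flk2- CD150+ cells, from young mice (YHSCs, 2 libraries) with those from old mice (OHSCs, 2 libraries). All mice were C57BL/6J males without a transgene named in the labels, the young ones aged 3 to 4 months from The Jackson Laboratory and the old ones 24 to 26 months from the NIA colony, so age and colony cannot be told apart. The same sort from both ages was profiled by mRNA-seq (4 YHSC and 8 OHSC libraries) and by ATAC-seq (4 and 4 used here), and YHSCs also by H3K4me3 and H3K27me3 ChIP-seq (2 libraries each). YHSC RNA came from pooled mice and OHSC RNA from single mice. The study calls the ChIP-seq libraries of an age biological replicates, without saying how many animals each came from, and p-values measure only the spread between these libraries.

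H3K27ac is placed by the acetyltransferases p300 and CBP and marks active promoters and enhancers. At a promoter it usually lies beside H3K4me3, which the Set1 and MLL enzymes place around transcription starts. H3K27me3, placed by Polycomb repressive complex 2, uses the same lysine, so a histone tail carries one or the other. Promoters with H3K4me3 and H3K27me3 are called bivalent and in stem cells are known at developmental and lineage genes held at low expression. Signal is given below without a physical unit, as the deposited value of a peak after the libraries were brought to the same median over all H3K27ac peaks. In bulk samples, fewer cells carrying a mark and less of the mark per cell cannot be told apart.

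The sequences shown first belong to promoters with large differences in signal between the ages, so that the values below can be read beside their DNA. Only peaks that met a ratio rule and a floor on mean signal, both given below, were ranked. Each is the 250 bases before the start given by RefSeq on the mouse build GRCm38.p6 (mm10), written 5′ to 3′ in the direction of transcription, and capitals mark the motifs searched for. Among the 20 promoters with the largest differences, the first 6 by absolute log2 ratio were taken whose start lay inside the peak, leaving aside Rps4l and Slc14a1, whose sequences are not printed. The condition on the start was added after the values were seen. It left out Fam169a, whose RefSeq start lay 3627 bases outside its peak, with Tmem215 at 702 bases, Bmpr1a at 297 and Gm11240 at 14. Higher in OHSCs were Zfp503 (chr14:21989602-21989851, minus strand), Gm14137 (chr2:119174259-119174508, plus strand), Selp (chr1:164115014-164115263, plus strand) and 9530026P05Rik (chr6:92940332-92940581, plus strand). Lower in OHSCs were Map10 (chr8:125669568-125669817, plus strand) and Il12rb2 (chr6:67376189-67376438, minus strand).
Zfp503: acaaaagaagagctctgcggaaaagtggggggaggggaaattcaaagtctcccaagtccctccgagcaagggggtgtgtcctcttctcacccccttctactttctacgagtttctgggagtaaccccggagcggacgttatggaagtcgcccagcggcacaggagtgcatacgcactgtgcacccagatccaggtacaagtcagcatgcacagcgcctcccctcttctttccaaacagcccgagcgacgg
Gm14137: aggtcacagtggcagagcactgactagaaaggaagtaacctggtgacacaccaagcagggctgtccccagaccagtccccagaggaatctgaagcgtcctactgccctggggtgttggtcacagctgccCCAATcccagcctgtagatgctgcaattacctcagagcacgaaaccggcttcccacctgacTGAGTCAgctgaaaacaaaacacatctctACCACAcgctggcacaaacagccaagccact
Selp: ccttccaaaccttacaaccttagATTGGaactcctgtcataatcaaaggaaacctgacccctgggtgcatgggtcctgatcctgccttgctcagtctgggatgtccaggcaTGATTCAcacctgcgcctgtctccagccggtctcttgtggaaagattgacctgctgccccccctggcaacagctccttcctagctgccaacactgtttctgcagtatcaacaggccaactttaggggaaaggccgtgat
9530026P05Rik: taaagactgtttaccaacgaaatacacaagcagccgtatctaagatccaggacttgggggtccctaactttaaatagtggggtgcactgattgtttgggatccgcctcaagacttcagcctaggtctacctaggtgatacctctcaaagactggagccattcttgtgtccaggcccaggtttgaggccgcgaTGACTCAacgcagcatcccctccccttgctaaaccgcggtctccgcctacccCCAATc
Map10: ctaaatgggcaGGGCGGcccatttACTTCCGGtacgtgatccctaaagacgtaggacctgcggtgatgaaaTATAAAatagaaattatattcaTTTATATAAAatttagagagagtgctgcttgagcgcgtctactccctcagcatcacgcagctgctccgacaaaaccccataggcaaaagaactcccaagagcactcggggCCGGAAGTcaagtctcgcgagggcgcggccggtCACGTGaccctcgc
Il12rb2: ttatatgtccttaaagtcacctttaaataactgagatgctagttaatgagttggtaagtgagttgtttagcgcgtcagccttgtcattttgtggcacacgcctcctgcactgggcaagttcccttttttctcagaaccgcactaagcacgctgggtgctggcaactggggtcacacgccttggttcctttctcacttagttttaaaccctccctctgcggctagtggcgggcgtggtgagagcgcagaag

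The 6 windows differed in the motifs they held. Gm14137, Selp and 9530026P05Rik each held TGANTCA, the letters bound by AP-1, and CCAAT, the letters bound by NF-Y, on one strand or the other. Gm14137 also held TGTGGT, the letters bound by RUNX factors, on the antisense strand. Map10 held CCGGAAGT (ETS factors) on both strands, GGGCGG (SP and KLF factors), CACGTG (E-box factors) and TATAAA, none of the 3 TATAAA matches being closer than 148 bases to the start. Zfp503 and Il12rb2 held none of the motifs searched. The Selp window reached only 82 bases into its peak, while the other 5 windows lay wholly inside theirs. A match is a description of letters and not a bound site.

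Motif content was compared over the 27025 promoters of the RefSeq table, each as 250 bases before to 50 after the start, on both strands. Of these, 8767 had the start inside a promoter H3K27ac peak. GGGCGG was present in 66.0% of the promoters with the start inside a peak and in 21.5% of the 18258 others, against 35.9% of all. CCGGAAGT was present in 9.10% and 1.55% (4.00% of all), TGACGTCA, the letters bound by CREB and ATF factors, in 3.8% and 0.953% (1.88%), CACGTG in 11% and 5.45% (7.24%), and GCGCATGC, the letters bound by NRF1, in 5.66% and 1.43% (2.80%). The shares ran the other way for TATAAA at 6.32% and 17.9% (14.2%), TGANTCA at 4.60% and 9.54% (7.93%), AGATAA, the letters bound by GATA factors, at 5.93% and 14% (11.4%), and TGTGGT at 12.3% and 19.2% (16.9%). CCAAT was near even, at 37.4% and 38.2% (37.9%). TATAAA on the sense strand 40 to 15 bases before the start, where a TATA box sits, was found in 2.22% of all promoters and in 2.78% of those outside a peak. Within the promoters inside a peak, the strongest peaks, above the 75th percentile of signal, held CCGGAAGT in 14% and TGACGTCA in 8.30%, against 3.79% and 1.87% among the weakest, below the 25th percentile. None of these motifs contains another, and GC content differed between the sets, with a median of 61.3% inside a peak and 49% outside.

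H3K27ac libraries had deposited medians of 2.09 and 1.83 in YHSCs and 2.05 and 2.13 in OHSCs over all peaks, and as these values are signals and not counts, no counting error is given for them. Read depths that the study lists for these libraries were not used here. Over the promoter peaks, log2 signal had a correlation between replicates of 0.953 in YHSCs and 0.967 in OHSCs, and of 0.932 to 0.937 between libraries of different age. The mRNA-seq libraries held 20475764 to 24654742 reads in genes and the ATAC-seq libraries 15427933 to 26260337 reads in regions. The sort was checked by the summed mRNA of marker lists, in CPM (counts scaled to library size). HSC regulators summed to 13644 to 14450 in YHSCs and 14483 to 15484 in OHSCs. Among them, Kit by itself overlapped, at 1762 to 1919 and 1605 to 1950, and Cd34 was lower in OHSCs, at 171.8 to 196.7 and 120.4 to 154.6. B cell and lymphoid genes summed to 553 to 656 in YHSCs and 353 to 377 in OHSCs, and erythroid genes to 1890 to 2134 and 1643 to 2136. Platelet and megakaryocyte genes summed to 4070 to 4417 in YHSCs and 5682 to 6335 in OHSCs. The sums of the groups did not overlap for HSC regulators, B cell and platelet genes and overlapped for erythroid genes. T and NK cell genes summed to 80.5 to 90.3 in YHSCs and 87.9 to 109 in OHSCs, and Cd3e, a T cell gene among them, was at 0 to 0.461 and 0.0422 to 0.402. Granulocyte and monocyte genes summed to 878 to 1136 in YHSCs and 1094 to 1357 in OHSCs, and Mpo, a granule enzyme among them, was at 0.495 to 28.7 in YHSCs, with a median of 0.754, and at 0.446 to 1.5 in OHSCs. The groups overlapped for both lists. The part of these genes in the results below was not tested.

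Promoter peaks had more signal than the other H3K27ac peaks and a different sequence context. Their median scaled signal was 3.89 and 3.90 in the YHSC libraries and 3.55 and 3.58 in the OHSC libraries, while the other peaks had 1.63, 1.66, 1.68 and 1.67. The median width was 1195 bases at promoters and 843 elsewhere. Median GC content was 58.2% at promoters and 47.8% elsewhere, and the median ratio of observed to expected CpG was 0.681 and 0.222. An H3K4me3 peak of YHSCs overlapped 97.4% of the promoter peaks and 49.7% of the others, and an H3K27me3 peak 20.02% and 10.9%. Peaks had been called at both ages for 87.9% of promoters and 53.7% of the other peaks, only in OHSCs for 8.63% and 35.1%, and only in YHSCs for 3.43% and 11.2%.

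The mean signal of a promoter peak ranged from 0.624 to 26, with a median of 3.74 and with 5.57 and 9.81 at the 75th and 95th percentiles. The strongest peak was that of Clk1, a kinase that phosphorylates SR splicing factors, with 26.6 and 27.9 in YHSCs and 25.1 and 24.6 in OHSCs. It was followed by Dnajb6, a co-chaperone that shares its peak with the predicted gene Gm5129 (24.7 and 26.7 in YHSCs, 26.9 and 25.4 in OHSCs), and by Rheb, the GTPase that activates mTORC1 (21.5 and 24.4, 23.6 and 22.8). Epc1, a subunit of the NuA4 acetyltransferase complex, and Unk, an RNA-binding zinc finger protein, came next with OHSC values between 20.5 and 22.1. None of these 5 passed the limma test between the ages. At the low end, Arhgap36 on the X chromosome had 0.294 and 0.285 in YHSCs and 1.10 and 0.819 in OHSCs, and Car4, a carbonic anhydrase, had 0.455 and 0.322 against 0.827 and 1.21. The 5 weakest peaks had been called as peaks only in OHSCs, so their higher OHSC values were part of how they were chosen, and none passed the limma test.

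Width and signal went together only loosely, with Spearman's rho of 0.358 over the 13392 peaks, which share the same 4 libraries. Meis1, a homeobox factor required for HSC maintenance, had the widest promoter peak at 4144 bases (chr11:19014344-19018487). Txnip, an inhibitor of thioredoxin and of glucose uptake, followed at 3586 bases, then Mbnl2 at 3559, Bbx at 3405 and Zfp827 at 3339. Mef2c, a MADS-box factor of lymphoid and megakaryocytic cells, had 3284 bases. A peak assigned to 2 genes was wider and stronger than a peak of a single gene, with medians of 1363 against 1168 bases and of 5.08 against 3.70 in YHSC signal. Of the 12010 pairs of gene and peak that could be matched to a RefSeq start, 73.0% had the start inside the peak, and the centre of the peak lay a median of 171 bases downstream of the start (quartiles -51.9 and 409).

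The share of genes with a promoter peak and the strength of that peak were compared with the RNA level of the gene in YHSCs, and from 0.01 RPKM upward the signal was higher in each higher class. Levels are given in RPKM, that is, reads scaled to exon length and to library size, so that genes can be compared. A gene was counted as having a promoter peak where the annotation named it for one. Among protein-coding genes, 1.74% of the 918 genes under 0.01 RPKM had a promoter peak, 11% of the 4926 genes from 0.01 to 0.1, 36.2% of the 4631 genes from 0.1 to 1, 86.6% of the 5519 genes from 1 to 10 and 94.9% of the 5478 genes from 10 to 100. Above 100 RPKM the share was 90.0% of 310 genes. The median signal of those peaks in the first YHSC library was 1.32 from 0.01 to 0.1 RPKM, 1.84 from 0.1 to 1, 3.89 from 1 to 10, 4.96 from 10 to 100 and 6.00 above 100. The second YHSC library gave 1.25, 1.69, 3.88, 5.11 and 6.19. The class under 0.01 RPKM stood outside this order, with 3.66 and 3.13 in YHSCs over only 18 peaks. The order from 0.01 RPKM upward was the same in both OHSC libraries, with 1.39 and 1.31 in the lowest of these classes and 5.55 and 5.65 in the highest. Over 13452 genes the Spearman correlation of YHSC signal with YHSC RPKM was 0.540, and over 13040 promoter peaks that with YHSC H3K4me3 signal was 0.702. The share of promoter peaks that overlapped H3K27me3 went from 81.3% at 0.01 to 0.1 RPKM through 66.6%, 15.4% and 2.70% to 0.946% above 100, and was 27.8% over the 18 peaks under 0.01.

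Gene function sorted the peaks by level as well. The median signals of the 4 libraries, YHSCs first, were 8.89, 9.03, 8.71 and 8.36 for the 64 promoter peaks of spliceosome and splicing factor genes, the highest of the 38 lists examined. Ribosomal protein genes had 7.66, 8.41, 8.50 and 8.22 over 81 peaks, and 78 of the 79 genes were named for one. Chaperone genes had 7.31, 8.15, 6.31 and 6.88 over 43 peaks, and proteasome genes 6.69, 7.25, 6.28 and 6.38 over 32. Respiratory chain and ATP synthase genes had 5.92, 6.05, 5.68 and 5.56 over 74 peaks, although their median RNA level was 60.3 RPKM against 40.7 RPKM for splicing genes. Genes of early response and AP-1, whose median RNA level was 9.17 RPKM, had 5.76, 6.56, 6.31 and 6.21. HSC regulators, with a promoter peak at 35 of 39 genes, had 4.69, 4.21, 4.21 and 4.16.

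A promoter peak was present at 59.1% of all genes tested in RNA, and the marker lists of other cell types lay on both sides of that share. Of the 23 B cell and lymphoid genes 6 had one, of the 23 T and NK cell genes 6, of the 27 granulocyte and monocyte genes 10, of the 28 erythroid genes 12 and of the 20 liver and pancreas genes 2. Bone marrow stroma and endothelium genes had one at 11 of 20, and platelet and megakaryocyte genes at 21 of 26. Genes of neurons and synapses had 12 peaks at 10 of 27 genes, with medians from 1.25 to 1.46, and 66.7% of these peaks overlapped H3K27me3. The HoxA and HoxB clusters had a promoter peak at 10 of 21 genes, and HoxC and HoxD at 1 of 18, Hoxc9. Of the genes fixed for naming, Ide, Spib, Nupr1 and Actb had no promoter peak among the rows used here. Some rows may not be among these, so this does not say that the mark is absent there.

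Between the ages the bulk of promoter peaks differed little. At promoter peaks the signal of OHSCs relative to YHSCs had a median log2 value of -0.12, with medians from -0.13 to -0.10 in the 4 pairings of an OHSC with a YHSC library, and 30.0% of promoter peaks had the higher mean in OHSCs. This median is set by the scaling. It was -0.03 on the deposited values and 0.01 when the libraries were scaled to the same median over promoter peaks instead of all peaks, so no direction is read from it, and differences below are best read relative to it. What does not depend on a common factor is the gap between promoter and other peaks inside each library. On the log2 scale the gap was 1.25 and 1.23 in YHSCs and 1.08 and 1.10 in OHSCs, so promoter peaks stood less far above the other peaks in both OHSC libraries than in both YHSC libraries. The gap does depend on which peaks were called. Of the other peaks 35.1% had been called only in OHSCs and 11.2% only in YHSCs, against 8.63% and 3.43% of promoter peaks. The other set thus holds many peaks that entered only through OHSCs, and the part of this in the gap was not tested. The exact permutation test of 2 against 2 libraries cannot go below a two-sided p of 0.333.

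**Figure D1:**
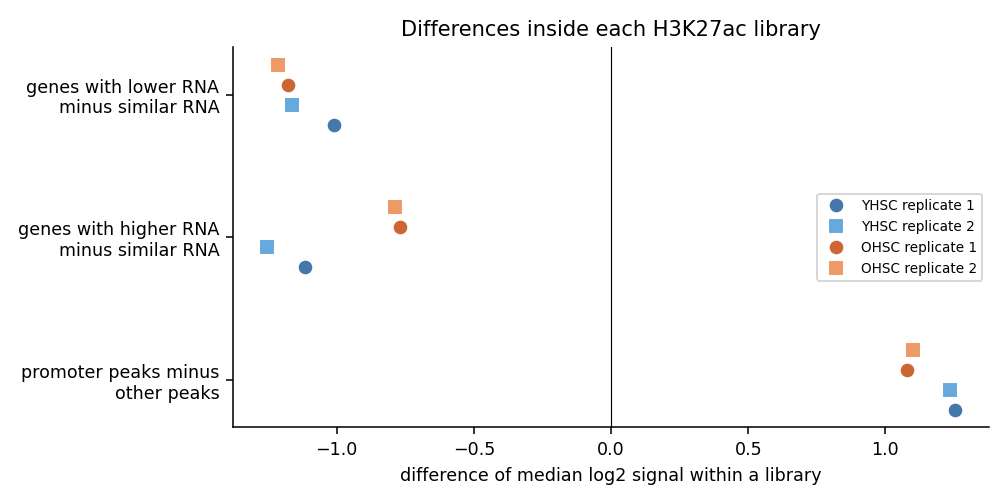
Each point is 1 H3K27ac library, and the axis gives the difference of median log2 scaled signal between 2 sets of peaks inside that library. The gap of promoter over other peaks is 1.25 and 1.23 in YHSCs and 1.08 and 1.10 in OHSCs. The gap of genes with higher RNA in OHSCs below genes with similar RNA is -1.12 and -1.25 in YHSCs and -0.77 and -0.79 in OHSCs, and for genes with lower RNA the values are -1.01 and -1.16 against -1.18 and -1.21.

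Single promoter peaks were called in 2 ways. The limma test over all 39557 peaks, at a Benjamini-Hochberg adjusted p below 0.05, called 107 promoter peaks higher in OHSCs, or 0.799%, where the share over all peaks was 1.96%. It called 345 promoter peaks lower, or 2.58%, where the share over all peaks was 1.54%. A ratio rule without a test, for a mean ratio above 1.5 with every pairing of libraries at 1.2 or more, was met by 267 promoter peaks higher in OHSCs (1.99%, against 7.01% of all peaks) and by 297 lower (2.22%, against 3.63%). Higher peaks were thus less frequent at promoters than over all peaks by both calls, as were peaks called only in OHSCs. The ratio rule was met by 92 of the 107 limma calls that were higher and by 164 of the 345 that were lower. The balance of directions depended on the scaling. The limma test gave 127 higher and 66 lower on the deposited values, 229 and 100 with promoter medians made equal, and 163 and 163 after quantile normalization, and the ratio rule gave 363 and 147 on the deposited values and 435 and 116 with promoter medians made equal. Leaving out 1 library moved the limma counts from 27 to 359 higher and from 55 to 1263 lower, lowest without OHSC replicate 2 and highest without YHSC replicate 1, and without limma's trend and robust options limma called 8 higher and 3 lower.

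**Figure D2:**
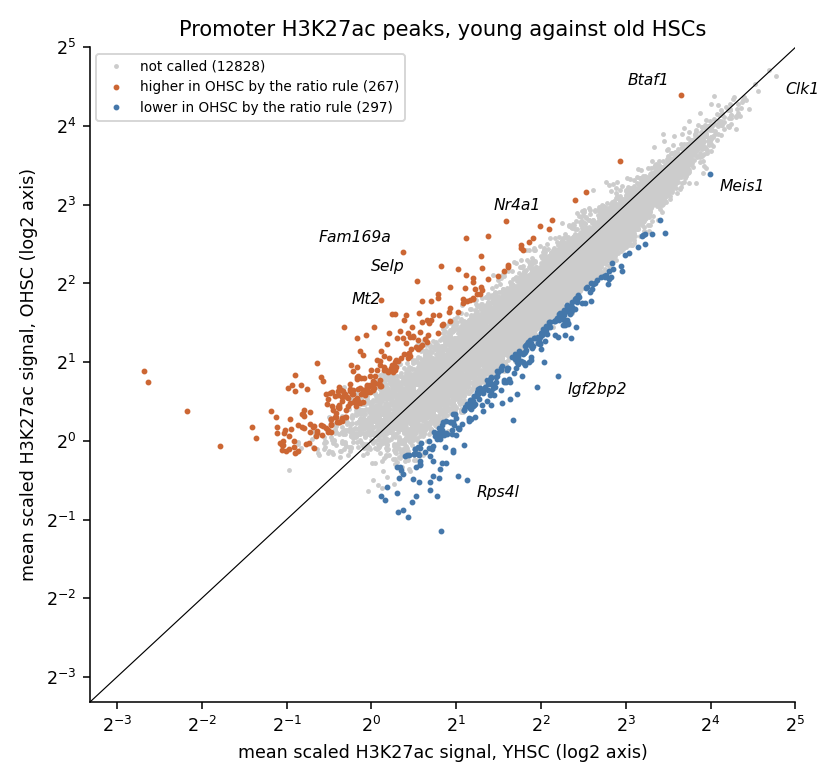
Each dot is 1 of the 13392 promoter peaks, with the mean scaled signal of the 2 YHSC libraries on the horizontal log2 axis and that of the 2 OHSC libraries on the vertical log2 axis. Colours mark the 267 peaks that met the ratio rule as higher in OHSCs and the 297 that met it as lower, and most of both lie toward weak signal.

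The promoter peaks with the largest higher signal in OHSCs, among those that met the ratio rule with a mean signal at or above the lower quartile of all peaks, had log2 ratios from 1.37 to 2.03. Fam169a, a gene of poorly known function (chr13:97070914-97071437), had 1.56 and 1.02 in YHSCs and 5.42 and 5.13 in OHSCs, a log2 ratio of 2.03. Selp, which encodes the platelet adhesion receptor P-selectin (chr1:164115182-164116554), had 1.73 and 1.16 against 4.26 and 3.94, a log2 ratio of 1.5. Bmpr1a, a receptor for bone morphogenetic proteins, had 1.76 and 1.76 against 5.15 and 4.19 at one peak (chr14:34501572-34502249) and 4.5 and 3.41 against 6.16 and 7.12 at its stronger neighbour. In each of these peaks both OHSC values lay above both YHSC values. The limma adjusted p was 2.33e-05 for Fam169a, 0.000403 for Selp and 0.000183 for the first Bmpr1a peak. These calls were kept when any 1 library was left out.

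The zinc finger gene Zfp503 had 0.734 and 0.868 in YHSCs and 2.59 and 2.84 in OHSCs (log2 ratio 1.76, limma adjusted p 0.000779). Gm14137, a predicted gene whose peak overlapped no H3K4me3 peak of YHSCs, had 1.07 and 1.10 against 3.36 and 3.58 (1.68, limma adjusted p 0.000204). The noncoding RNA gene 9530026P05Rik had 2.71 and 1.63 against 6.54 and 5.40 (1.46, limma adjusted p 0.000352). Slc14a1, a urea transporter of red cells, Tmem215, a membrane protein gene, the peak shared by Gm11240 and Rasef, a Rab-type GTPase gene, and Mt2, a metallothionein that binds zinc and copper, had log2 ratios of 1.48, 1.41, 1.41 and 1.37. Their limma calls were each lost without 1 OHSC library, with adjusted p of 0.0899 for Slc14a1, 0.183 for Tmem215 and 0.0706 for Mt2 without OHSC replicate 2, and 0.0871 for Gm11240 without OHSC replicate 1. Without the trend and robust options, limma called 4 of these 10 peaks, Fam169a, Zfp503, Gm14137 and Slc14a1. H3K27me3 of YHSCs overlapped 7 of the 10, as it did 7 of the 10 largest lower peaks. The share was 20.02% over all promoter peaks and 59.1% over those up to the 25th percentile of mean signal. Of the 9 higher peaks with a tested ATAC-seq region, 5 were more accessible in OHSCs and none less, where 10.1% of all regions were more accessible. The RNA of 8 of the 10 genes was higher in OHSCs by edgeR's quasi-likelihood test, where the share over all genes tested was 4.69%. The exceptions were Gm14137, at 1.07 and 1.11 CPM, and Gm11240, which was too low to be tested.

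Under the same rule and signal floor, the promoter peaks with the largest lower signal in OHSCs were mostly of weak or middling signal in YHSCs. Igf2bp2, an RNA-binding protein of fetal growth and stem cells (chr16:22161265-22163091), had 5.07 and 4.15 in YHSCs and 2.01 and 1.53 in OHSCs, a log2 ratio of -1.38. Il12rb2, a chain of the interleukin 12 receptor (chr6:67375513-67376795), had 3.48 and 2.86 against 1.18 and 1.22, a log2 ratio of -1.40. Rps4l, a gene like that of ribosomal protein S4 (chr6:148354615-148355145), had 2.14 and 2.24 against 0.826 and 0.592, a log2 ratio of -1.62. For all 3, both OHSC values lay below both YHSC values, and the limma adjusted p was 0.000403, 0.0014 and 0.00404. Map10, a microtubule-associated protein gene, had 1.88 and 2.19 against 0.695 and 0.775 (limma adjusted p 0.00802). The peak shared by Acvr1, a receptor of the BMP and activin family, and Upp2 had 4.05 and 3.71 against 1.55 and 1.66 (limma adjusted p 0.000738), while the RNA of Acvr1 was at 9.48 and 8.38 CPM with an adjusted p of 0.358 by edgeR. The histone genes Hist1h2an and Hist1h2bp shared a peak with a log2 ratio of -1.12, and Skida1 had -1.11. These 7 calls were kept when any 1 library was left out, and those of Rps4l and Map10 also without the trend and robust options.

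Nfil3, a bZIP factor needed for innate lymphoid and NK cells, Cass4, an adaptor of focal adhesions, and Mesp2, a bHLH factor of somites, had log2 ratios of -1.15, -1.09 and -1.08. Their limma calls were lost without OHSC replicate 2, at adjusted p of 0.135, 0.179 and 0.126. That of Nfil3 was also lost without YHSC replicate 1 (0.0544), and those of Cass4 and Mesp2 without OHSC replicate 1 (0.0728 and 0.131) and on the deposited values (0.0526 and 0.0605). A second Nfil3 peak had 1.80 and 1.24 in YHSCs and 1.72 and 3.01 in OHSCs and was called by neither rule. Of the 10 genes named for the lower peaks, 6 had lower RNA in OHSCs by edgeR's test and none had higher RNA, where 2.83% of all genes tested had lower RNA. Igf2bp2 RNA was 48.4 CPM in YHSCs and 12.7 in OHSCs, and Il12rb2 RNA 13.4 and 4.14. Accessibility was lower in OHSCs past the threshold at 3 of the 10 peaks, where the share over all regions was 2.9%, with log2 changes of -1.77 at Rps4l, -1.25 at Map10 and -0.75 at Igf2bp2, by edgeR's test on ATAC-seq counts.

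**Figure D3:**
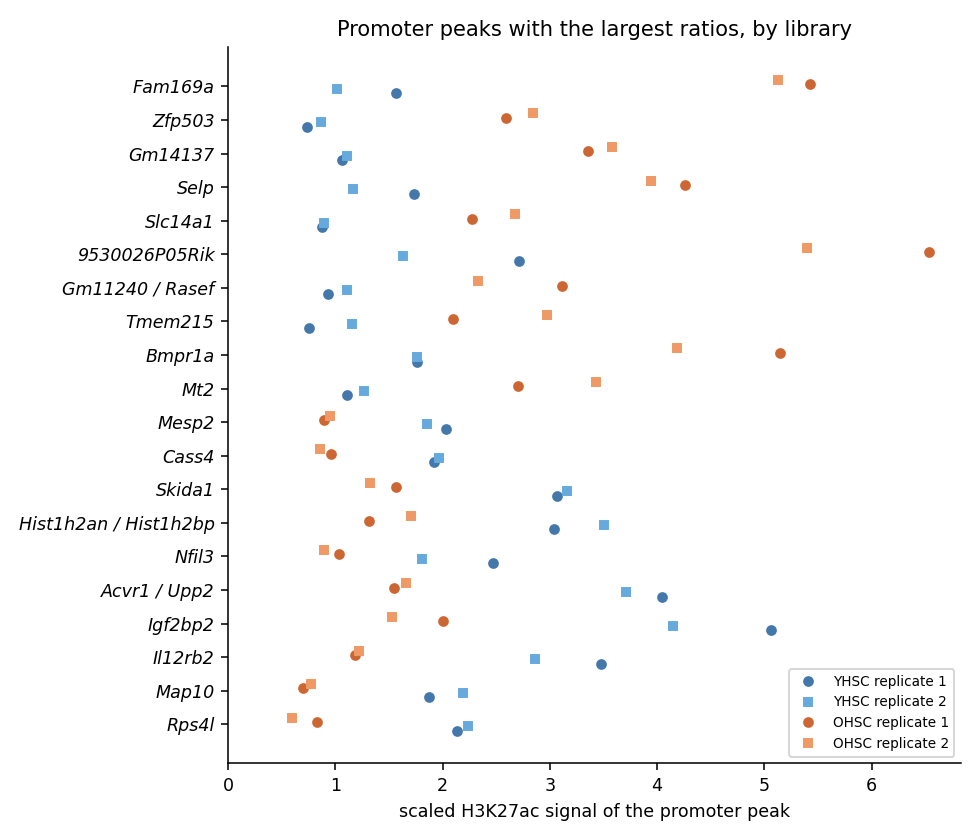
Each row is 1 of the 20 promoter peaks with the largest differences among those that met the ratio rule and the signal floor, named by its genes. The 4 points are the scaled signals of the 2 YHSC and the 2 OHSC libraries on a linear axis from 0. In all 20 rows the YHSC and OHSC points do not overlap, which the ratio rule that chose them requires.

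Peaks that met the ratio rule were weak and narrow, and the 2 directions differed in Polycomb marking. With promoter peaks divided by mean signal into 4 equal classes, the 267 higher peaks numbered 216, 33, 13 and 5 from the weakest class to the strongest, and the 297 lower peaks 150, 76, 54 and 17. The limma calls that were lower ran the other way, with 34, 62, 115 and 134 in the same order. The median width was 832 bases for higher and 918 for lower peaks by the rule, against 1195 for all promoter peaks. H3K27me3 of YHSCs overlapped 64.4% of the higher peaks, 37.0% of the lower ones and 20.02% of all promoter peaks. Many of these peaks entered only through the age where they were high. Of the higher ones 189 had been called as peaks only in OHSCs, and of the lower ones 103 only in YHSCs. All promoter peaks called only in OHSCs had a median width of 660 bases and 52.7% with H3K27me3. Those called only in YHSCs had 618 bases and 35.4%, and the part of this in the 2 directions was not tested. Among the 2681 promoter peaks with H3K27me3, the rule was met by 172 higher and 110 lower, median log2 value -0.01 (-0.08 to 0.07 in the pairings), and among the 10711 without it by 95 and 187, with a median of -0.14. The 352 promoter peaks without H3K4me3 in YHSCs had a median of 0.08, with 42 higher and 20 lower. CpG-rich promoters, with an observed to expected ratio of 0.6 or more, had 51 higher and 283 lower limma calls among 8864 peaks, and the 4528 CpG-poor ones had 56 and 62. Peaks with H3K27me3 were weaker, with YHSC medians of 1.80 and 1.63 against 4.48 and 4.53 without it, and the part of signal level in these shares was not tested. The motif TGANTCA was present in 9.84% of 122 higher and 2.78% of 144 lower promoters by the rule that had the start inside a peak, against 4.60% of all promoters with the start inside a peak and 7.93% of all promoters. CACGTG was present in 8.20% and 18.1%, against 10.97% and 7.24%.

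RNA was the independent measure of the same genes. Of the 21522 genes tested by edgeR, 1010 or 4.69% had higher RNA in OHSCs and 608 or 2.83% had lower RNA, with a fold change over 1.5 and adjusted p under 0.05. The 686 promoter peaks of genes with higher RNA had median signals of 2.30 and 2.14 in YHSCs and 2.66 and 2.61 in OHSCs, or 0.19 as the median log2 ratio (0.15 to 0.24 in the pairings). The 400 promoter peaks of genes with lower RNA had 2.48 and 2.28 against 2.00 and 1.95, a median of -0.29 (-0.31 to -0.22). The 4462 peaks of genes with similar RNA, that is, less than 5% apart in either direction, had 4.99 and 5.11 against 4.54 and 4.51, a median of -0.14 (-0.16 to -0.11). The ratio rule was met by 94 higher and 2 lower peaks of the genes with higher RNA, by 1 higher and 54 lower of the genes with lower RNA, and by 14 and 57 of those with similar RNA. For genes whose RNA was more than 4-fold higher the median was 0.73 over 72 peaks, of which 41 met the rule as higher and none as lower. For genes whose RNA was more than 4-fold lower it was -0.40 over 29 peaks, with 9 lower and none higher. Signs of the medians for higher and lower RNA held under every scaling, while their sizes shifted with it, to 0.32 and -0.16 when promoter medians were made equal.

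The genes that differed in RNA started from weak promoter peaks at both ages. Within each library, the log2 median signal at genes with higher RNA lay below that at genes with similar RNA, the difference being -1.12 and -1.25 in YHSCs and -0.77 and -0.79 in OHSCs. At genes with lower RNA it was -1.01 and -1.16 in YHSCs and -1.18 and -1.21 in OHSCs. H3K27me3 overlapped 51.6% of the peaks of genes with higher RNA and 48.5% of those with lower RNA, against 6.77% of those with similar RNA. A promoter peak was present at 61.6% of the genes with higher RNA, 59.5% of those with lower RNA and 59.1% of all genes tested, and at 72.7% of those with similar RNA. Most genes with a difference in RNA had no called difference at their strongest promoter peak. The ratio rule was met as higher by 82 of 622 such genes with higher RNA (13.2%) and as lower by 51 of 362 with lower RNA (14.1%), against 1.31% and 1.81% of the 12714 tested genes with a peak. Read from the peak, 82 of the 167 tested genes whose peak was higher by the rule had higher RNA (49.1%) and none lower, and 51 of the 230 whose peak was lower had lower RNA (22.2%) and 2 higher. Over 12714 genes the Spearman correlation between the log2 ratio of signal and the RNA log2 change was 0.225.

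Among the genes with the largest RNA differences, promoter peaks differed in size of response. Rcvrn, a calcium sensor of photoreceptors, had RNA of 0.11 CPM in YHSCs and 7.16 in OHSCs, and its peak had 0.520 and 0.553 against 1.24 and 1.87. Mab21l2, a developmental gene, had RNA of 0.443 and 16.0, and its peak 1.11 and 1.21 against 2.60 and 2.59. Sbspon, a secreted matrix protein gene, had RNA of 2.92 and 86.6, a log2 change of 4.89, while the log2 ratio of its peak was 0.67. The limma call of all 3 peaks was lost with 1 OHSC library left out, with an adjusted p without OHSC replicate 2 of 0.4355 for Rcvrn, 0.0979 for Sbspon and 0.0896 for Mab21l2, and without OHSC replicate 1 of 0.0587 for Rcvrn and 0.0644 for Mab21l2. The limma log2 differences without OHSC replicate 2 were 1.07 for Rcvrn, 0.64 for Sbspon and 1.10 for Mab21l2, against 1.35, 0.66 and 1.10 with all libraries. On the other side, Rgs7bp, which anchors regulators of G protein signalling, had RNA of 9.62 and 0.692, and its peak 3.24 and 2.59 against 1.52 and 1.27, with a limma adjusted p of 0.00975 that was 0.0708 without OHSC replicate 2. Bank1, a B cell adaptor, had RNA of 18.3 and 2.02 (log2 change -3.17) and peak values of 1.92 and 2.04 against 1.56 and 2.06, which overlapped. Slc38a5, a glutamine transporter, had lower RNA by -3.15 on the log2 scale and a peak log2 ratio of 0.41, which passed no rule. Adgrl1 and Osbpl8 were the genes with higher RNA and a peak that met the rule as lower. Osbpl8, a lipid transfer protein, had RNA of 193.6 and 298.6 and peak values of 6.68 and 7.49 against 4.49 and 3.96 (limma adjusted p 0.00371, and 0.110 without the trend and robust options). By its strongest promoter peak, no gene with lower RNA met the rule as higher.

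Accessibility at promoter peaks was read from ATAC-seq regions that shared at least 1 base with a peak. Over all 89245 regions tested by edgeR, 10.1% were more accessible in OHSCs and 2.9% less, with a fold change over 1.5 and adjusted p under 0.01. Of the 13336 regions at promoter peaks, 117 or 0.877% were more and 225 or 1.69% less accessible, and the median log2 change was -0.15, against -0.01 over all regions. At the 110 promoter peaks whose strongest region was more accessible, H3K27ac had a median log2 ratio of 0.67, and 58 met the ratio rule as higher and none as lower. Of those peaks 70.0% overlapped H3K4me3, against 97.4% of all promoter peaks. At the 198 peaks whose strongest region was less accessible the median was -0.20, with 21 lower and none higher. The Spearman correlation of the 2 log2 changes was 0.182 over 13048 promoter peaks and 0.433 over 23016 other peaks. The strongest region was tested without a call at 192 of the 267 higher and 259 of the 297 lower peaks by the rule. That held for 12740 of the 13048 promoter peaks with a tested region. The rule was met as higher by 52.7% of peaks with a more accessible region and by 1.51% of those without a call. It was met as lower by 10.6% of peaks with a less accessible region and by 2.03% of those without a call.

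By gene function, 36 lists had at least 5 promoter peaks, and their median log2 ratios lay mostly near the promoter median of -0.12. Ribosomal protein genes had a median of -0.02 over 81 peaks, and respiratory chain genes -0.12 over 74, with no peak called by either rule and no gene called in RNA. Splicing genes had -0.09, with 1 limma call, Prpf8, the core splicing factor (17.0 and 15.8 against 21.7 and 19.9), whose limma adjusted p of 0.028 became 0.397 without OHSC replicate 1 and 0.194 without OHSC replicate 2. DNA damage response and repair genes had -0.24 over 43 peaks, with 5 lower limma calls and none higher. For this and the next lists, lower calls made up 2.58% of all promoter peaks and 1.54% of all peaks, and their number depended on the scaling, at 345 or 66 over all promoters. Genes of cholesterol and fatty acid synthesis had -0.23 over 31 peaks, with 4 lower calls, DNA replication and mitosis genes -0.20 over 53, with 4 lower calls and 1 higher, and Polycomb genes -0.21 over 36, with 1 lower (2.78%), Yaf2 (9.37 and 8.27 against 5.90 and 5.12), a call lost without OHSC replicate 2 (limma adjusted p 0.0700). RNA was called for 1 of the 39 repair genes, higher, and for 2 of the 53 replication genes, lower, where 4.69% of all genes were higher and 2.83% lower.

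Genes described as higher in old HSCs had the highest median of the lists with at least 5 promoter peaks, 0.39 over 26 peaks (pairings 0.35 to 0.45). The ratio rule was met as higher by 10 of the 26 and as lower by none, and RNA was higher for 26 of the 28 genes, against 1.99% of all promoter peaks for the rule and 4.69% of all genes for RNA. This list is not independent evidence of a direction, since it was assembled from what is known of aged HSCs. Its members with the largest ratios were Selp, Osmr, the oncostatin M receptor (1.25 and 1.41 against 2.76 and 3.29), Gpr183, an oxysterol receptor (log2 ratio 1.18), Plscr2, a scramblase (1.16), and Mt1 (1.48 and 1.77 against 3.14 and 3.74). The limma adjusted p of Osmr was 0.00434 and that of Mt1 0.00426, and without OHSC replicate 2 they were 0.105 and 0.0967. Vwf, the von Willebrand factor, and Jun, an AP-1 subunit, had higher RNA and no called difference at the promoter peak, with 2.78 and 3.42 against 3.75 and 4.34 for Vwf and 9.30 and 11.4 against 9.72 and 9.52 for Jun. Aldh1a1, a retinal dehydrogenase, had a stronger peak that overlapped between the ages (2.91 and 3.59 against 4.04 and 3.15) and a weaker one that met the rule as higher (2.25 and 2.65 against 3.83 and 3.89). Jun RNA was 22.7 and 56.9 CPM. Platelet and megakaryocyte genes had a median of 0.01 over 22 peaks, with 3 higher by the rule, Selp, Itga2b, the integrin subunit CD41, and Plek, the platelet protein pleckstrin.

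HSC regulators had a median of -0.10 over 43 promoter peaks (pairings -0.13 to -0.07), with none higher and 2 lower by the rule, which 1.99% and 2.22% of all promoter peaks met. Meis1, whose peak was the widest, had 16.2 and 15.6 in YHSCs and 10.5 and 10.5 in OHSCs, a log2 ratio of -0.60 and a limma adjusted p of 0.00127, while its RNA was at 666 and 725 CPM, a log2 change of 0.12. That call was kept when any 1 library was left out but lost without the trend and robust options (limma adjusted p 0.133). Kit, the stem cell factor receptor, had 4.77 and 3.81 against 3.21 and 3.38, Mecom 8.28 and 7.47 against 7.34 and 7.46, and Gata2 5.26 and 3.98 against 6.45 and 5.6. Spi1, the myeloid factor PU.1, had 5.96 and 6.21 against 6.01 and 6.56, which overlapped, and Hlf, a bZIP factor of HSCs, and Runx1 had overlapping values too. None of these 6 passed the limma test. Hoxb4 had the highest log2 ratio of the list, 0.41, also without a call.

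Among lymphoid genes, Flt3, the receptor tyrosine kinase of multipotent and lymphoid progenitors, had 3.40 and 3.24 in YHSCs and 1.70 and 2.23 in OHSCs, a log2 ratio of -0.76. Its RNA was 28.9 and 15.5 CPM, a log2 change of -0.90, and RNA was lower for 15 of the 22 tested genes of the list, against 2.83% of all genes. The limma adjusted p of the Flt3 peak was 0.0277, and it was 0.0866 on the deposited values, 0.0527 with promoter medians made equal and 0.245 without OHSC replicate 1. Cd79b, a chain of the B cell receptor, had lower RNA by -0.62 on the log2 scale and a peak at 3.29 and 2.73 against 3.13 and 3.06, which overlapped. The summed mRNA of this list was lower in every OHSC library than in every YHSC library, as given above, and its part in these values was not tested.

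Immediate response genes held single calls in both directions. Nr4a1, an orphan nuclear receptor, had 3.90 and 4.86 in YHSCs and 6.96 and 7.01 in OHSCs (log2 ratio 0.67), Klf10, a TGF-beta induced repressor, 5.91 and 4.66 against 3.50 and 3.49 (-0.60), and Fos, which passed neither rule, 5.61 and 8.37 against 9.34 and 9.69. The limma call of Klf10 (adjusted p 0.0328) was lost in most alternatives, with adjusted p of 0.136 on the deposited values, 0.0784 with promoter medians made equal and 0.0799, 0.111 and 0.154 without YHSC replicate 1, OHSC replicate 1 and OHSC replicate 2. Of the 37 peaks of the list, 5 were higher and 4 lower by limma, against 1.96% higher and 1.54% lower over all peaks, and 2 of 35 tested genes had higher and 3 lower RNA, against 4.69% and 2.83% of all genes. Nr4a1 RNA was at 14.2 and 13.9 CPM. The limma adjusted p of the Nr4a1 peak was 0.00802, and 0.0535 without OHSC replicate 2. Mt1 and Mt2, neighbouring metallothionein genes on chromosome 8, were the 2 promoter peaks called higher among the 35 of the antioxidant list, and their RNA had log2 changes of 2.45 and 3.24. The HoxA and HoxB clusters had a median of 0.16 over 11 peaks (pairings 0.13 to 0.36), with 90.9% higher in OHSCs, against 30.0% of all promoter peaks. Of the 11, 1 met the rule as higher, Hoxb9, at 1.49 and 1.11 against 2.13 and 3.69, where 1.99% of all promoter peaks did. The Hoxb9 limma adjusted p of 0.0205 became 0.409 without OHSC replicate 2. Kcnb2, a neuronal potassium channel gene, had 0.638 and 0.436 against 1.66 and 1.92, with RNA of 0.78 and 17.1 CPM and more accessible chromatin (log2 change 1.46). Its limma adjusted p of 0.00833 became 0.171 without OHSC replicate 2.

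Btaf1, a factor that removes TATA-binding protein from DNA, had the highest log2 ratio among the 64 promoter peaks of polymerase II general factor and Mediator genes. Its peak (chr19:36925403-36926931) had 12.5 and 12.6 in YHSCs and 22.7 and 19.6 in OHSCs, a log2 ratio of 0.75 (pairings 0.63 to 0.86), so both OHSC values lay far above both YHSC values. The limma adjusted p was 0.00016, and the call was kept when any 1 library was left out but lost without the trend and robust options (0.106). Btaf1 RNA was 93.2 and 134.4 CPM, a log2 change of 0.53 with an adjusted p of 0.000807 by edgeR, under the fold threshold, and accessibility of its strongest region had a log2 change of -0.44. The lowest ratio of the list was that of Med8, a Mediator subunit, with 6.59 and 7.48 against 4.85 and 5.48. Kif11, a mitotic motor on the same chromosome (chr19:37375308-37376729), also had more signal, with 7.47 and 7.72 against 11.7 and 11.8 (limma adjusted p 0.00214, and 0.125 without the trend and robust options), and RNA of 20.5 and 18.8 CPM. A gene body or distal peak was not considered for any of these genes.

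**Figure D4:**
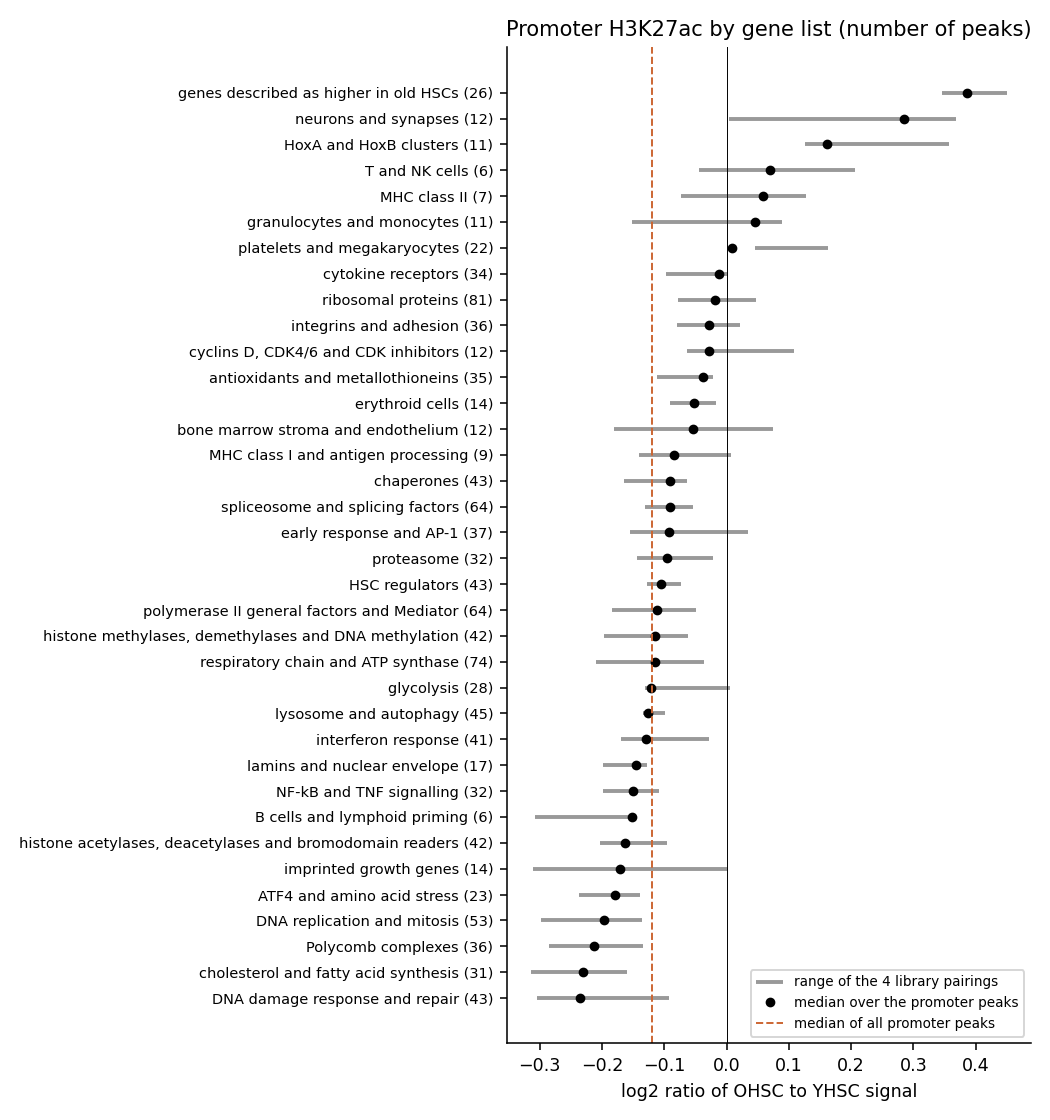
Each row is a gene list with at least 5 promoter peaks, with the number of peaks in brackets. The point is the median over peaks of log2 OHSC over YHSC signal and the grey bar the range of the medians in the 4 pairings of libraries. Genes described as higher in old HSCs stand highest at 0.39, and DNA damage response and repair genes lowest at -0.24.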

How the data were processed

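The authors trimmed the ChIP-seq and ATAC-seq reads with cutadapt, mapped them to mm10 with BWA and kept unique, de-duplicated reads. The deposited H3K27ac, H3K4me3 and H3K27me3 values are signals over each peak, after the authors brought every library to 10 M reads. Their methods do not say how a peak's value was taken from the signal. The ATAC-seq values are counts per consensus region, and the mRNA-seq values counts per gene on GENCODE M22 after STAR and featureCounts, as the authors deposited them. Their fold change columns were not used, nor were 8 columns that could be tied to no sample. The 92 spike-in rows of the RNA table, which name no mouse gene, were kept out of library sizes and tests.

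Promoter peaks were the distinct rows annotated TSS-proximal, including 141 that the authors mark as of low mappability. Libraries were scaled to the same median over all distinct H3K27ac peaks, and log2(signal + 0.1) was compared over all peaks with limma 3.58.1 (trend and robust options, R 4.3.3), adjusted by Benjamini-Hochberg. A ratio of means is given as log2 without a pseudocount. RNA and ATAC-seq counts were compared with edgeR 4.0.16 (TMM, quasi-likelihood, robust), RNA after filterByExpr and ATAC-seq regions above 1.5 CPM in at least 4 libraries. DESeq2 1.42.0 served as an alternative for RNA. Overlaps used bedtools 2.31.1 with at least 1 shared base, and Python 3.11.15 with pandas 2.3.3, numpy 2.4.6 and matplotlib 3.10.9 did the rest. RPKM used merged exon lengths of GENCODE and the mean of the YHSC libraries. Where a gene had several promoter peaks, the strongest stood for it in comparisons by gene, and where a peak overlapped several ATAC-seq regions, the strongest tested one.

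On simulated data with 200 features changed 2-fold, limma recovered 29.5% of them among 39557 peaks with 0 false calls. EdgeR recovered 82.5% for ATAC-seq with 1 false call and 71.5% for RNA with 7. In that simulation, with 2 libraries per age, the limma test missed most 2-fold differences. Its changed peaks were drawn from all peaks, so the share recovered at promoter peaks was not measured. Named peaks were the 10 largest differences each way that met the ratio rule with a mean signal of at least the lower quartile of all peaks, the 5 strongest, 5 weakest and 10 widest, the extremes of each list, genes fixed by name and the largest RNA differences, also where the peak went the other way. The Bmpr1a, Nfil3, Gpr183, Plscr2, Plek and Hoxc9 values beyond that rule were chosen after they were seen. The genes, lists and tests were chosen with earlier results of these data known. Some genes of the lists are not reported here by name.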

Additional observations from a re-analysis of the deposited data

Results flagged for a closer look

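Of 138 groups of RNA libraries tested for the named genes, 4 had a library apart from the others, and chance alone gives about 1 in 20. Gm14137 was at 0.361 CPM in OHSC replicate 7, where the other OHSC libraries had 0.971 to 1.46. Map10 was at 2.72 in OHSC replicate 5, where the others had 3.98 to 5.06. Zfp503 was at 5.63 in OHSC replicate 1, where the others had 1.90 to 3.59. Txnip was at 2199 in YHSC replicate 1, where the others had 2058 to 2069. None of these is an H3K27ac library, and the groups of 2 H3K27ac libraries are too small for this rule.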

How the results depend on the processing

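Scaling, leaving out 1 library and the limma options each moved the promoter results. The median log2 ratio of -0.12 at promoter peaks was -0.0288 on the deposited values, -0.0398 after quantile normalization, -0.106 with a pseudocount of 0.5 and 0.00934, the other sign, with promoter medians made equal. At genes with higher RNA it was 0.27 on the deposited values and 0.32 with promoter medians made equal, at genes with lower RNA -0.20 and -0.16, and -0.23 with a pseudocount of 0.5, and at genes with similar RNA -0.0475, -0.0102 and, after quantile normalization, -0.0399. Leaving out 1 library gave -0.12 to -0.10 over all promoter peaks, -0.33 to -0.23 for lower RNA and -0.15 to -0.11 for similar RNA. The ratio rule gave 435 higher and 116 lower peaks with promoter medians made equal, 147 lower on the deposited values, 124 higher with the filter on low signal, 71 and 28 with a ratio above 2, and 340 to 525 higher and 415 to 565 lower with 1 library left out. The limma test gave 66 lower on the deposited values, 229 higher and 100 lower with promoter medians made equal, 163 and 163 after quantile normalization, 8 and 3 without trend and robust options, 148 lower with a fold change above 1.5 added, and 27 to 359 higher and 55 to 1263 lower with 1 library left out, where a lone sample is assumed to vary like the other group. With a replicate block limma gave 198 and 836, but same-numbered libraries shared only a number (correlation of deviations 0.0386), and the block gave 901 and 520 genes for RNA. No paired analysis was possible for ATAC-seq because the ages share no replicate number. RNA gave 1811 higher and 1234 lower genes at a fold change above 1.2 and 550 and 323 above 2, and ATAC-seq 46 and 11 regions above 2. The cause of these shifts was not tested. No named peak or gene that was called changed direction, while 13 named peaks without a call changed sign with promoter medians made equal, among them Mecom, Jun, Runx1 and Gapdh. The H3K27ac values are not counts, so no counting error was computed.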

Other observations

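Some highly expressed genes were named for no promoter H3K27ac peak among the rows used here, and whether these are all rows of the peak table is not known. Of the protein-coding genes above 100 RPKM in YHSCs, 31 were named for none, of which 7 are mitochondrial. Of the other 24, 3 had any H3K27ac peak within 1000 bases of a GENCODE start, 12 (50.0%) an H3K4me3 peak and 19 (79.2%) an ATAC-seq region. These 3, Rps28, H2afz and Ndufa1, lay at a promoter peak that the annotation gives under another gene name. Of the 279 genes above 100 RPKM with a promoter peak, 92.8% had an H3K27ac peak within that distance, 93.2% an H3K4me3 peak and 93.5% an ATAC-seq region. Genes without a promoter peak included Actb, a cytoskeletal actin, Eef2, a translation elongation factor, Ly6a, the Sca-1 antigen used in the sort, Serinc3 and Zfp36l2. From 10 to 100 RPKM, 281 genes were named for no promoter peak. Of these, 81 (28.8%) had any H3K27ac peak within 1000 bases of a start, 149 (53.0%) an H3K4me3 peak and 215 (76.5%) an ATAC-seq region.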
